A study of Homo sapiens with 4 samples.

Results

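The SRRM3 and SRRM4 libraries were compared, as a pair, with the empty-vector and MSI1 libraries, gene by gene. Of 13281 genes compared, 56 (0.422%) were at least 2-fold higher in the SRRM pair and 14 (0.105%) at least 2-fold lower, with the gap between the pairs larger than the spread within them. For 42 of the 56 the higher level lay outside counting error in every pairing of libraries. AL031658.2, a sense-intronic transcript that lies inside the gene XKR7 on the same strand, was set aside among the 42, since its reads may belong to XKR7, and the other 41 are named below. They include 7 genes of dense-core vesicles, among them granins and a hormone-processing enzyme, 8 genes of synaptic vesicle fusion, several transmitter receptors, and the neuronal subunit of a chromatin remodeller. On the lower side a single gene, DHRS2, met the same conditions.

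All 4 libraries came from HEK293, an established human embryonic kidney line, made into stable lines that carry a transgene switched on by doxycycline: SRRM3, SRRM4, MSI1, or no insert in the empty vector. Every line, the empty vector included, was kept in tetracycline-free serum and received doxycycline at 1 µg/mL for 24 h. PolyA-selected RNA was sequenced with strand kept, with 1 library in each of the 4 groups and 60288244 to 63003121 reads counted in genes per library. The labels do not say whether a line is 1 clone or a pool, and a difference between lines cannot be told apart from an effect of the transgene they carry. The MSI1 line expresses an RNA-binding protein of its own, so the control pair used here is an empty line and a line with another transgene. The libraries of a pair are therefore not replicates, and no p-value was computed.

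SRRM3 and SRRM4 are serine/arginine-rich proteins that promote the inclusion of microexons, very short exons that are spliced into neuronal transcripts. SRRM4 is also known for switching the splicing of REST, the zinc-finger repressor that keeps neuronal genes silent in other cell types by binding the RE1 element and recruiting the CoREST complex with the demethylase KDM1A and histone deacetylases. Neurons and neuroendocrine cells share a regulated secretory pathway, in which dense-core vesicles carry peptides and granins and synaptic vesicles carry transmitters. The values used here are gene-level and show transcript abundance, not exon inclusion.

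A gene entered the comparison when its cRPKM was at least 1 in any library. This deposited measure divides reads by the library total and by a divisor fixed for each gene. MSI1, SRRM3 and SRRM4 were left out. The difference between the pairs was taken on the log2(cRPKM + 0.5) scale, where a value of 1 is a 2-fold difference. That scale understates the difference of low genes. A gene met the gap rule when this difference exceeded the larger of the differences within the pairs. Across the 13281 genes, 1314 (9.89%) were higher and 1591 (12%) lower in the SRRM pair by the gap rule alone, and the median difference was -0.0072. Most of those differences were small. Of the genes meeting the gap rule, 1190 on the higher side and 1535 on the lower side differed by less than 0.5 on the log2 scale. With the 2-fold limit added, 80% of the genes were on the higher side. That share became 98.1% (53 higher and 1 lower) when CPM with TMM scaling, which has no divisor for each gene, replaced cRPKM. It was 58.6% (78 higher and 55 lower) without the empty-vector library, 70.7% without MSI1 and 71% without SRRM4. Of the 56 higher genes, 38 passed the cRPKM limit only in an SRRM library.

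**Figure D1:**
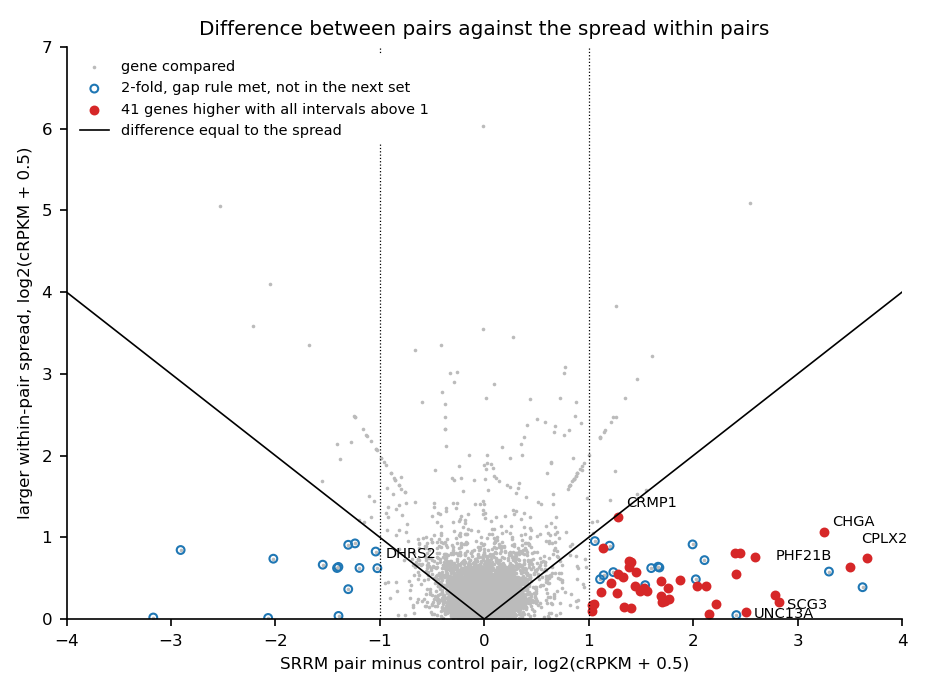
Each point is 1 of the 13281 genes compared. The horizontal axis gives the SRRM pair minus the control pair on the log2(cRPKM + 0.5) scale and the vertical axis the larger difference within a pair on the same scale; genes under the diagonal lines meet the gap rule, and the dotted lines mark 2-fold. Genes with all counting intervals above 1 extend to 3.67 on the right, while DHRS2 at -1.04 sits close to its line on the left.

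The labels were checked on the induced genes. The SRRM3 library held 38.53 cRPKM of SRRM3, against 0.49 to 1.39 in the other libraries. The SRRM4 library held 63.78 cRPKM of SRRM4, against 0.01 to 0.39 elsewhere. MSI1 was at 62.43 cRPKM in its library and at 8.19 to 10.56 in the others. Of 6 HEK293 markers all passed the cRPKM limit, and VIM stood at 909.49 to 1211.14 cRPKM. Of 12 neuron markers 4 were compared, and 8, STMN2 among them, were under the cRPKM limit in every library and could not be called. SNAP25 alone of the 4 was 2-fold higher in the SRRM pair, a call lost with TMM-scaled CPM (0.84) or a pseudocount of 2 (0.61). DCX and SLC17A6 had no read in any library. The summed level of the 12 was 17.2 and 26.85 cRPKM in the controls and 24.0 and 22.5 in the SRRM libraries. Markers of neuroendocrine cells (8), photoreceptors (6), fibroblasts (5) and blood cells (5) summed to at most 7.10 cRPKM in any library; INS, GCG, DBH, ARR3 and GNAT1 had no read. The mitochondrially encoded mRNAs summed to 10740 cRPKM with the empty vector, 12850 with MSI1, 15970 with SRRM3 and 11210 with SRRM4, and their part in the results below was not tested. In bulk RNA, a share of cells with a high level and a low level in every cell cannot be told apart.

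The largest difference of all genes meeting the gap rule was that of CPLX2 (ENSG00000145920, GRCh38 chr5:175796310-175884020), a complexin that binds assembled SNARE complexes and controls vesicle release. It was at 0.11 cRPKM in both the empty-vector and MSI1 libraries, 9.54 in SRRM3 and 5.48 in SRRM4. The log2 difference was 3.67 against a within-pair spread of 0.75. In reads scaled to library size, the SRRM pair held 68.1 times the level of the control pair, with a 95% counting interval of 53.7 to 87.7. All such intervals are exact conditional intervals; they carry the error of counting alone and set library against library. PHF21B (ENSG00000056487, chr22:44881162-45009999), a PHD-finger protein related to the CoREST subunit PHF21A, came next among genes that are neither short RNAs nor clones. Its levels were 0.55 cRPKM with the empty vector, 0.97 with MSI1, 17.13 with SRRM3 and 10.80 with SRRM4, an order kept for every set of 4 values that follows. Its log2 difference was 3.51 against a spread of 0.64. CPLX2, PHF21B, SCG3 and CHGB were named with the comparison, and all were higher in both SRRM libraries than in either control. The comparison was chosen with earlier results of these data known, so the direction of these 4 genes is no independent support.

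Of 19 listed genes of dense-core vesicles, 7 were 2-fold higher, beside 0.422% of all genes compared: CHGA, SCG3, CHGB, PCSK1, SYT4, VGF and SCG2. Of the 14 that were compared, 4 passed the cRPKM limit only in an SRRM library. Chromogranin A (CHGA, chr14:92923080-92935293), a granin that packs into the vesicle core, was at 0.76, 1.39, 20.81 and 9.70 cRPKM. Its log2 difference was 3.26 and its SRRM3 library stood 1.06 above its SRRM4 library, 1 of 2 genes of the set with a 2-fold gap between the SRRM libraries. Chromogranin B (CHGB, chr20:5911430-5925361) was at 1.00, 1.02, 11.02 and 8.88 cRPKM, and secretogranin III (SCG3, chr15:51681353-51721031), which binds chromogranin A at the vesicle membrane, at 0.68, 0.86, 9.04 and 7.94. The control levels lay close together for CHGB and SCG3 and less so for CHGA. Both SRRM libraries stood above both controls for each of the granins, as the gap rule requires.

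The convertase PCSK1, which cleaves prohormones inside the vesicle, was at 0.72, 1.27, 10.07 and 5.56 cRPKM, a log2 difference of 2.45. SYT4, a synaptotagmin of dense-core vesicles, had 16 and 7 reads in the controls against 845 and 411 in the SRRM libraries, or 0.06, 0.03, 3.31 and 1.68 cRPKM. The peptide precursor VGF was at 0.44, 0.90, 2.37 and 2.93 cRPKM, and secretogranin II (SCG2) at 0.18, 0.13, 1.26 and 0.80. Not every gene of the compartment differed. Carboxypeptidase E (CPE), which trims peptides after the convertases, was at 77.54, 56.09, 76.52 and 74.89 cRPKM, and the amidating enzyme PAM at 56.54, 60.47, 56.81 and 55.92; both were already abundant in the controls and neither met the gap rule. PCSK1N, an inhibitor of PCSK1, was at 11.47, 12.40, 13.98 and 9.99 cRPKM. The receptor-like phosphatase PTPRN was at 0.14, 1.29, 2.41 and 1.05 cRPKM, with the MSI1 library above SRRM4, so that its pairs overlapped. Over all 19 genes the median log2 difference was 0.20, beside -0.0072 over all genes compared.

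**Figure D2:**
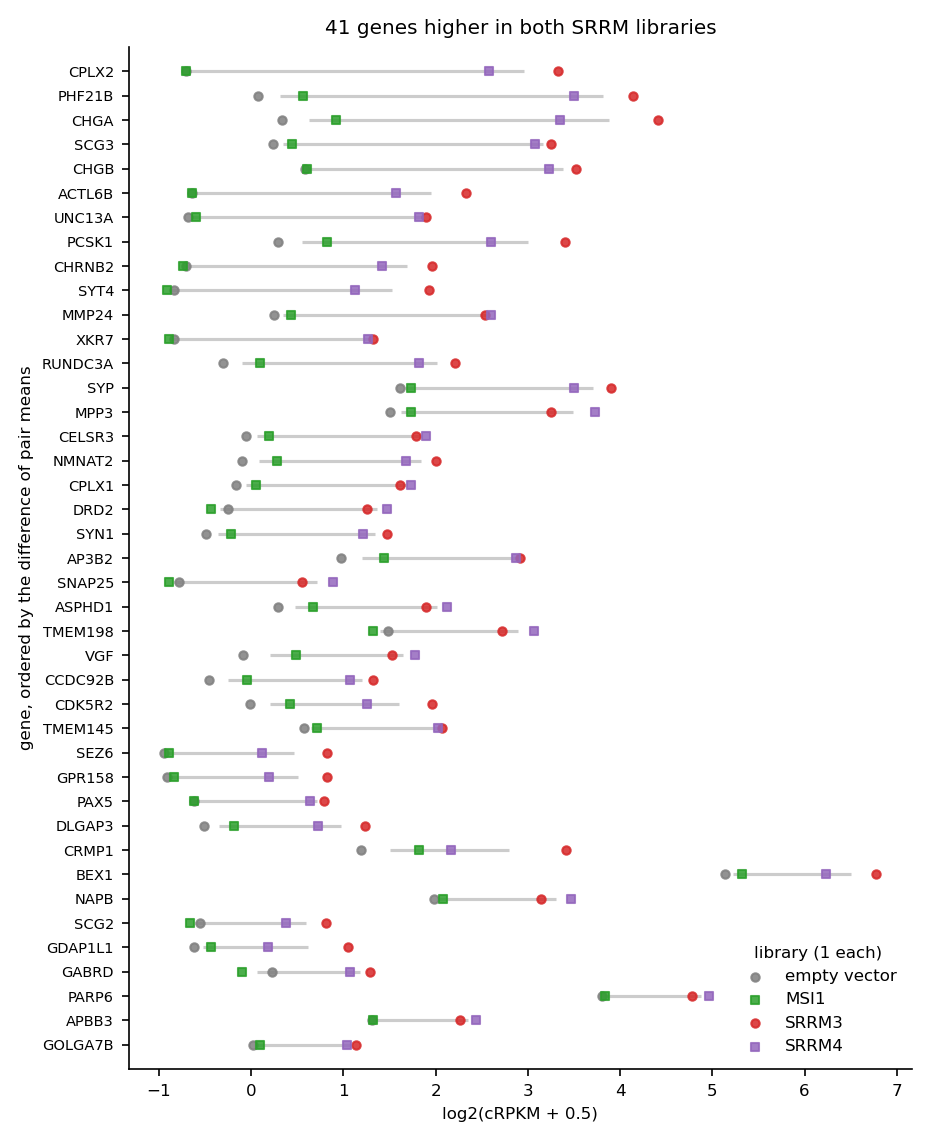
Levels of the 41 higher genes, 1 row per gene, with log2(cRPKM + 0.5) on the horizontal axis; each point is 1 library, and the grey line joins the means of the pairs. The choice of these genes places the SRRM3 and SRRM4 points to the right of both control points in every row. Rows run from CPLX2 at the top, with 0.11 cRPKM in both controls, down to GOLGA7B near 2-fold.

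Synaptic vesicle fusion was the next group, with 8 of 38 listed genes 2-fold higher, beside 0.422% of all genes compared. UNC13A, which primes vesicles for release, was at 0.12, 0.16, 3.23 and 3.02 cRPKM, a log2 difference of 2.50 with a spread of 0.09. The SRRM libraries agreed closely for this gene. The vesicle membrane protein synaptophysin (SYP) was at 2.55, 2.81, 14.49 and 10.84 cRPKM, a log2 difference of 2.04. The complexin CPLX1 (0.39, 0.54, 2.57 and 2.82 cRPKM) and synapsin I (SYN1, a phosphoprotein that tethers vesicles; 0.21, 0.36, 2.28 and 1.81 cRPKM) differed by 1.73 and 1.70. AP3B2, the neuronal beta subunit of the AP-3 coat, was at 1.46, 2.21, 7.06 and 6.84 cRPKM. NAPB, a SNAP protein that helps take SNARE complexes apart, was at 3.44, 3.74, 8.32 and 10.55. SNAP25, the plasma-membrane SNARE of neurons, had 2 and 1 reads in the controls and 23 and 31 in the SRRM libraries. The ratio of the pairs was 18.3, with a counting interval of 5.93 to 91.4, so the direction lay outside counting error but the size was poorly fixed. Its log2 difference was 1.55.

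Other fusion genes differed less. The SNARE syntaxin 1A (STX1A) was at 2.81, 3.83, 6.40 and 7.33 cRPKM, just under 2-fold at 0.96. VAMP2, the vesicle SNARE, was at 16.44, 16.92, 20.90 and 19.57 cRPKM, a difference of 0.27 that met the gap rule. The disassembly ATPase NSF did not differ beyond the spread, at 49.25 to 51.35 cRPKM in all libraries. Over the 38 genes the median log2 difference was 0.11; 13 were higher and 2 lower by the gap rule, beside 9.89% and 12% of all genes compared. Of the 24 compared, 5 passed the cRPKM limit only in an SRRM library, and 14 of the 38 were under the cRPKM limit, among them SYT1 at 0.24, 0.08, 0.08 and 0.17 cRPKM.

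Among chromatin regulators, 1 of 22 listed BAF subunits and 1 of 18 listed REST and CoREST genes passed 2-fold. Of all genes compared, 0.422% did so. ACTL6B (chr7:100643097-100656461), the neuronal actin-like subunit of the BAF remodeller, was at 0.14, 0.14, 4.52 and 2.47 cRPKM, with 13 reads in each control and 423 and 222 in the SRRM libraries. Its log2 difference was 2.59. Its counterpart ACTL6A was at 53.57, 51.93, 53.40 and 55.80 cRPKM and did not differ beyond the spread. The plant-homeodomain subunits DPF1 and DPF3 met the gap rule with differences of 0.17 and 0.42. By that rule 6 of the 22 subunits were higher and 0 lower, beside 9.89% and 12% of all genes compared, and their median was 0.08. Among the 18 REST and CoREST genes PHF21B stood alone past 2-fold. REST itself was at 7.93, 7.74, 7.13 and 6.50 cRPKM, lower by 0.19 with a spread of 0.12. KDM1A was at 101.47, 98.82, 108.29 and 105.47 cRPKM and CTDSP1, a phosphatase that acts with REST, at 17.25, 16.43, 21.00 and 19.48; both were higher by the gap rule, by 0.09 and 0.26. HDAC2 was lower by 0.12. Of the 18 genes, 9 were higher and 2 lower by the gap rule, beside 9.89% and 12% of all genes compared. The median of the 18 genes was 0.09.

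A list of 38 known REST target genes, with SRRM3 and SRRM4 left out of it, overlapped the higher set most. Like the other lists it was chosen with earlier results of these data known, so its rank among the lists is no independent support. Of the 38, 21 were 2-fold higher, beside 0.422% of all genes compared. By the gap rule 23 were higher and 0 lower, beside 9.89% and 12%. The cRPKM limit left out 11. Of the 27 compared, 16 passed that limit only in an SRRM library, so the counts are a description of those genes. The median difference over all 38 was 1.37. Members that did not differ included TUBB3, a neuronal tubulin (12.01, 21.20, 16.85 and 15.14 cRPKM), the sodium channel SCN2A (0.12 to 0.14 cRPKM) and BDNF, a neurotrophin (0.37 to 0.50 cRPKM). The glutamate receptor gene GRIA2 had at most 2 reads in any library. Some REST targets were thus silent in all 4 libraries, as GRIA2 was, and others present in all 4, as TUBB3 was. STMN2, a growth-cone protein, had 1 read in each control, 40 in SRRM3 and 9 in SRRM4, under the cRPKM limit throughout.

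The promoters of the higher genes were searched for the letters of the RE1 element to show what sequence lies beside their start sites. The window ran from 250 bases before to 50 bases after the start, in the RefSeq promoter table (GRCh38.p14), where 27 of the 42 higher genes that are neither short RNAs nor clones have an entry. The letters searched were AGCACC, the core of the left arm, and GGACAG, the core of the right arm, on both strands. With 2 bases between them and no mismatch, as in the canonical element, 18 of 27305 genes in the table held them (0.0659%), and 1 of the 27 higher genes, SYN1. Allowing 1 mismatch gave 122 genes (0.447%) and 2 of the 27, with VGF added, and allowing 2 gave 1479 genes (5.42%) and 3 of the 27 (11.1%), with BEX1 added. Both arms exact, on the same strand and in order at any distance within the window, occurred in 413 genes (1.51%) and 4 of the 27 (14.8%). The 5 matches with at most 1 mismatch are printed with the arms in capitals and up to 30 bases in all, since they show the arms at different distances.
SYN1: ccagcttcAGCACCgcGGACAGtgccttcg
VGF: ccggcttcAGCACGctGGACAGcgcccgcg
SCG3: acttcAGCACCcacagggcGGACAGcgctc
UNC13A: ggttcAGCACCgggggcgcGGACAGcgcct
ACTL6B: AGCACCgaggcggccGGACAGctcc
The SYN1 match lies on the minus strand of chrX:47620066-47620095, upstream of the start. The others are on the plus strand, at chr7:101165554-101165583 (VGF, across the start), chr15:51681509-51681538 (SCG3, after the start), chr19:17688338-17688367 (UNC13A, across the start) and chr7:100656399-100656423 (ACTL6B, after the start). The arms are separated by 2 bases in SYN1 and VGF, by 8 in SCG3 and UNC13A and by 9 in ACTL6B. A match is a description of the letters and not evidence of binding, and the other higher genes hold no such arrangement in this window or have no entry.

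Receptors and channels formed a smaller group, and most of the listed genes were low: 23 of 38 listed genes were under the cRPKM limit. CHRNB2, the beta 2 subunit of neuronal nicotinic receptors, was at 0.11, 0.10, 3.40 and 2.17 cRPKM, a log2 difference of 2.42. The dopamine receptor DRD2 was at 0.34, 0.24, 1.89 and 2.27 cRPKM, a difference of 1.71. Those were the 2 listed genes past 2-fold, beside 0.422% of all genes compared. A further pair of receptors in the higher set, the delta subunit of the GABA-A receptor (GABRD; 0.67, 0.43, 1.95 and 1.60 cRPKM) and the receptor GPR158 (0.03, 0.06, 1.27 and 0.64 cRPKM), were on no list. The potassium channel KCNC1 and the sodium channel subunit SCN3B met the gap rule at 0.73 and 0.62. The nicotinic subunits CHRNA3, CHRNA5, CHRNA7, CHRNB1 and CHRNB4 did not meet it. CHRNA4, the usual partner of CHRNB2, had at most 3 reads in any library.

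Adhesion and axon genes gave 3 of 23 past 2-fold, with 17 of the 23 compared, beside 0.422% of all genes compared. MPP3, a membrane-associated guanylate kinase scaffold, was at 2.34, 2.83, 9.02 and 12.79 cRPKM, a log2 difference of 1.87. CELSR3, an atypical cadherin of axon guidance, was at 0.46, 0.64, 2.94 and 3.21 cRPKM, and NMNAT2, the NAD-synthesising enzyme that sustains axons, at 0.43, 0.71, 3.51 and 2.70. L1CAM, an axonal adhesion molecule, was just under 2-fold at 0.69, 1.37, 2.74 and 1.86 cRPKM, and the neural adhesion molecule NCAM1 did not differ beyond the spread. Of 25 cytoskeleton and transport genes 22 were compared and 2 were past 2-fold, beside the same 0.422%. RUNDC3A, a RUN-domain protein, was at 0.31, 0.57, 4.14 and 3.04 cRPKM. CRMP1, a collapsin response mediator, was at 1.79, 3.03, 10.15 and 3.99 cRPKM, and its difference of 1.28 barely exceeded the 1.25 between its SRRM libraries. The neurofilament NEFH and the stathmin STMN3 were higher by 0.67 and 0.88, the neurofilament NEFL lower by 0.25, and the median over the 25 genes was -0.01.

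**Figure D3:**
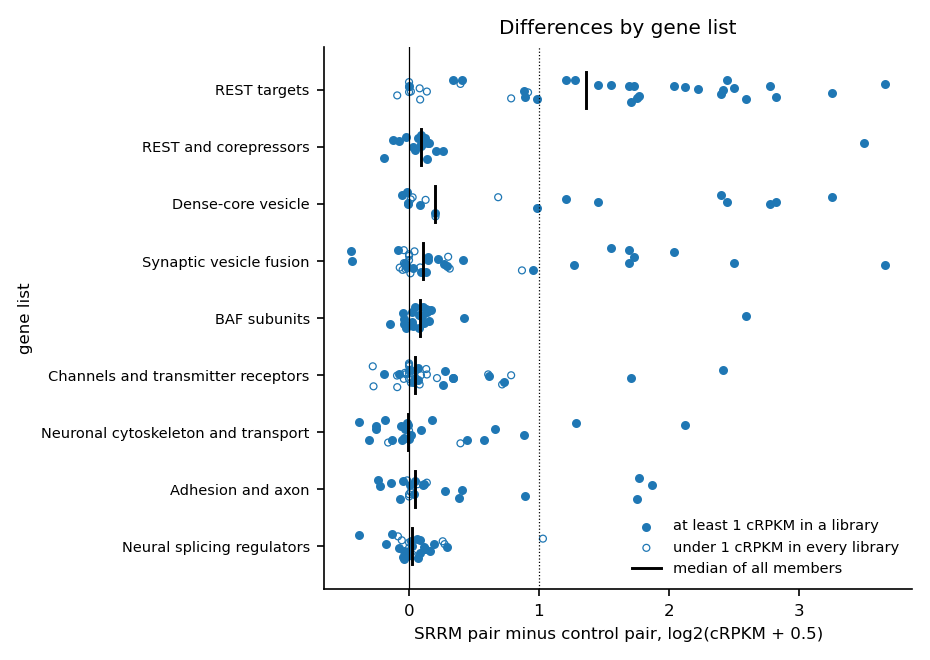
Log2 difference, SRRM pair minus control pair, of each gene of 9 lists, with 1 row per list; filled points are genes of at least 1 cRPKM in a library, open points genes under it in every library, the dotted line marks 2-fold and the bar marks the median over all matched genes. The REST target row has its median at 1.37, while the medians of the BAF subunits, channels and cytoskeleton genes lie between -0.01 and 0.08.

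The rest of the higher set had no list of its own. MMP24, a membrane-bound metalloproteinase counted among the REST targets, was at 0.69, 0.85, 5.29 and 5.55 cRPKM, a log2 difference of 2.22. XKR7, of the XK-related family, was at 0.06, 0.04, 2.0 and 1.90 cRPKM and had the smallest within-pair spread of the 41 genes, 0.06. CDK5R2, an activator of the neuronal kinase CDK5, was at 0.49, 0.84, 3.38 and 1.89 cRPKM. SEZ6, a transmembrane protein of neurons, had 4 and 10 reads in the controls and 339 and 149 in the SRRM libraries. DLGAP3, a scaffold of the postsynaptic density, was at 0.20, 0.38, 1.85 and 1.15 cRPKM. PAX5, a transcription factor best known from B cells, was at 0.15, 0.15, 1.23 and 1.06. GDAP1L1 reached 1.57 cRPKM in SRRM3 and 0.63 in SRRM4. ASPHD1, TMEM198, TMEM145, CCDC92B (annotated as noncoding in GENCODE 29), APBB3 and GOLGA7B complete the set, with log2 differences from 1.03 for GOLGA7B to 1.53 for ASPHD1.

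Few of these genes were abundant. Of the 41, 27 were under 1 cRPKM in both controls and 8 had a mean of at least 5 cRPKM over the libraries. BEX1, a small brain-expressed protein counted among the REST targets, was the exception at 34.62, 39.43, 109.34 and 74.64 cRPKM, a log2 difference of 1.28. Its near relative BEX2 was at 16.97, 24.19, 19.97 and 15.38 cRPKM, and how reads shared by such relatives were counted is not stated in the labels. PARP6, a mono-ADP-ribosyltransferase, was at 13.44, 13.81, 27.02 and 30.74 cRPKM and differed by 1.05 with a spread of 0.18. Among 4079 genes with a mean of at least 20 cRPKM, 433 were higher by the gap rule, beside 9.89% (1314 of 13281) of all genes compared. Of the 433, 4 were higher by at least 1.5-fold: BEX1, PARP6, the JNK scaffold MAPK8IP2 (15.39, 13.81, 29.98 and 25.32 cRPKM) and STMN3 (20.62, 14.56, 29.88 and 35.14 cRPKM).

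Genes nearly silent in both controls, under 0.1 cRPKM, were looked at apart because a limit on the mean would drop them. Of 42 such genes compared, 14 were in the higher set; each passed the cRPKM limit only in an SRRM library and so had to differ. Of these, 5 were neither short RNAs nor clones: SYT4 (16, 7, 845 and 411 reads), XKR7 (27, 22, 981 and 895), GPR158 (15, 25, 552 and 268), SEZ6 (4, 10, 339 and 149) and SNAP25 (2, 1, 23 and 31). The other 9 were short RNAs or clones, 8 of them with 0 reads in both controls; AL031658.2 had 3, 2, 43 and 94 reads. SNORD36C, a small nucleolar RNA, had 0, 0, 7 and 5 reads, and these few reads stand at 6.55 and 4.88 cRPKM in the SRRM libraries. CELF3, a neural splicing regulator under the cRPKM limit, had 10, 7, 134 and 104 reads and a log2 difference of 1.03; it was outside the comparison. Of the 31 splicing regulators matched, PTBP1, the repressor of neuronal exons, was higher by 0.16 at 171.18, 168.24, 187.82 and 191.49 cRPKM, and MBNL2 was lower by 0.39; the median was 0.02.

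Several higher genes have a close relative that was present in all 4 libraries, and 17 such pairs were set side by side; the pairs were chosen after the values were seen, and STX1A, under 2-fold, is included. Among the relatives 2 were higher, 4 lower and 11 neither by the gap rule, 0 were past 2-fold, and the median difference was -0.015. The synaptophysin relative SYPL1 was lower, at 40.58, 42.98, 31.17 and 27.63 cRPKM, a difference of -0.50. The widely expressed AP-3 beta subunit AP3B1 was lower as well, at 24.10, 25.66, 19.82 and 16.76 cRPKM, a difference of -0.44. The SNARE STX3 was at 20.59, 28.60, 12.93 and 18.37 cRPKM, a difference of -0.64, and SNAP23 differed by -0.09. The gene higher in the SRRM libraries is called the first member here, and its relative may be a neuronal gene as well. In those pairs the first member was higher and the relative lower in the SRRM libraries. The relative still stayed the more abundant transcript in every library. NAPA, UNC13B, APBB1, CELSR2 and ACTL6A differed by 0.05 or less in size. The relative was above the first member in 16 of 17 pairs in each control library and in 14 of 17 in each SRRM library. BEX1 alone among the first members was above its relative in every library.

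**Figure D4:**
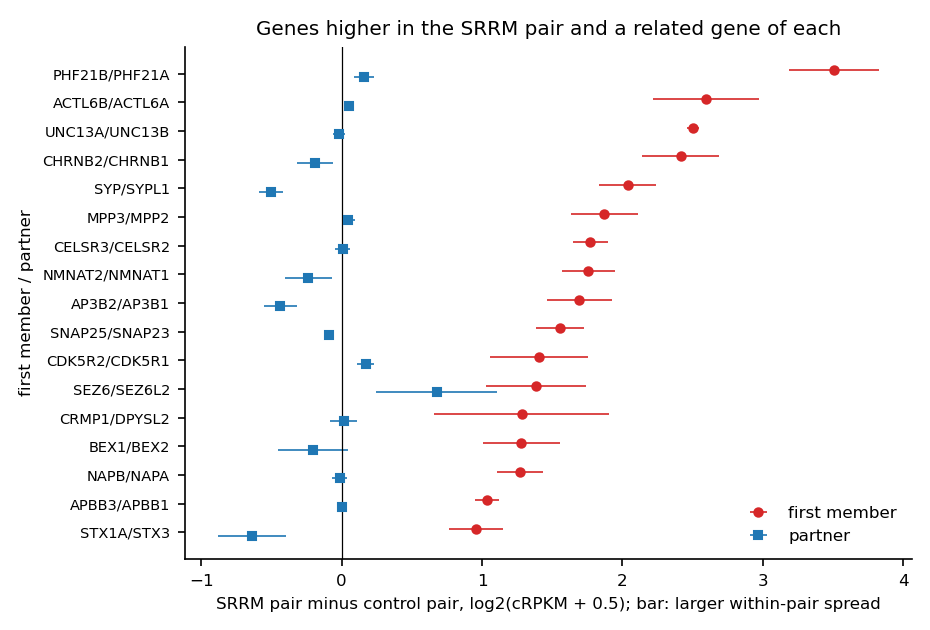
Log2 difference, SRRM pair minus control pair, for each of the 17 higher genes and its relative; the bar through a point has the length of the larger within-pair spread. The relatives lie between -0.64 (STX3) and 0.68 (SEZ6L2, whose spread is 0.86), and no relative reaches 2-fold.

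On the lower side, DHRS2 (ENSG00000100867, chr14:23630115-23645639), a short-chain dehydrogenase/reductase, was at 9.55, 17.32, 5.18 and 6.96 cRPKM. Its log2 difference was -1.04 and the larger spread, between the controls, was 0.83. The MSI1 library was the highest and the empty-vector library lay nearer to the SRRM libraries. The other 13 of the 14 lower genes, 12 of them short RNAs and the other CNTNAP3C, of the CNTNAP3 family of near-identical copies, had at most 11 reads in any library and no set of intervals outside 1. Among the 4079 abundant genes 452 were lower by the gap rule, beside 12% (1591 of 13281) of all genes compared. Of the 452, 4 were lower by at least 1.5-fold. These were SFT2D1, a protein of vesicle traffic (50.20, 55.44, 32.82 and 32.34 cRPKM, difference -0.69), STX3 (-0.64), the catenin-related CTNNAL1 (58.87, 69.93, 38.66 and 43.75 cRPKM, -0.64) and BAK1, an effector of apoptosis (34.12, 39.77, 24.75 and 23.77 cRPKM, -0.59). Vinculin (VCL), of focal adhesions, and MICU2, a regulator of the mitochondrial calcium uniporter, followed at -0.58 and -0.57. In each of these the SRRM libraries lay below both controls, as the gap rule requires.

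Groups outside the neuronal lists showed few genes past the gap rule. Among 20 compared genes of the YAP-TEAD and immediate early list, DUSP1 alone met it, lower by 0.44; ANKRD1 had the larger difference of -1.41 but a spread of 2.14, with 5.48, 14.43, 1.20 and 6.98 cRPKM. The interferon list had 1 lower gene of 15, the helicase IFIH1 at -0.11, and IFIT1 ranged from 1.51 cRPKM in the MSI1 library to 12.54 in the empty vector. The p53 list had 1 lower gene of 18, SESN2 at -0.10. The mitochondrial list had 1 lower of 13, MT-ND3 at -0.06. In each of these lists 1 lower gene is a smaller share than the 12% of all genes compared that were lower by the gap rule. The lone lower gene does not give the lean of its list. Differences were positive for 11 of 15 interferon genes (median 0.24) and 11 of 13 mitochondrial genes (0.20). They were positive for 5 of 20 YAP-TEAD and immediate early genes (-0.23) and 2 of 18 p53 genes (-0.08). These leans were not tested.

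Within the pairs, the higher genes leaned toward SRRM3 and MSI1. Of the 41 genes, 29 (70.7%) were higher in SRRM3 than in SRRM4, against 51.4% of all genes compared, and the median of SRRM3 minus SRRM4 was 0.25 log2 against 0.0076. CHGA and CRMP1 were at least 2-fold higher in SRRM3, and 0 were so in SRRM4. The 12 genes higher in SRRM4 were MMP24, MPP3, CELSR3, CPLX1, DRD2, SNAP25, ASPHD1, TMEM198, VGF, NAPB, PARP6 and APBB3. In the controls, 30 of the 41 (73.2%) were higher in MSI1 than in the empty vector, against 53.6% of all genes, with a median of 0.14 against 0.0165. CPLX2, ACTL6B and PAX5 had the same cRPKM in both controls. These within-pair differences come from 1 library each and were not tested.

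**Figure D5:**
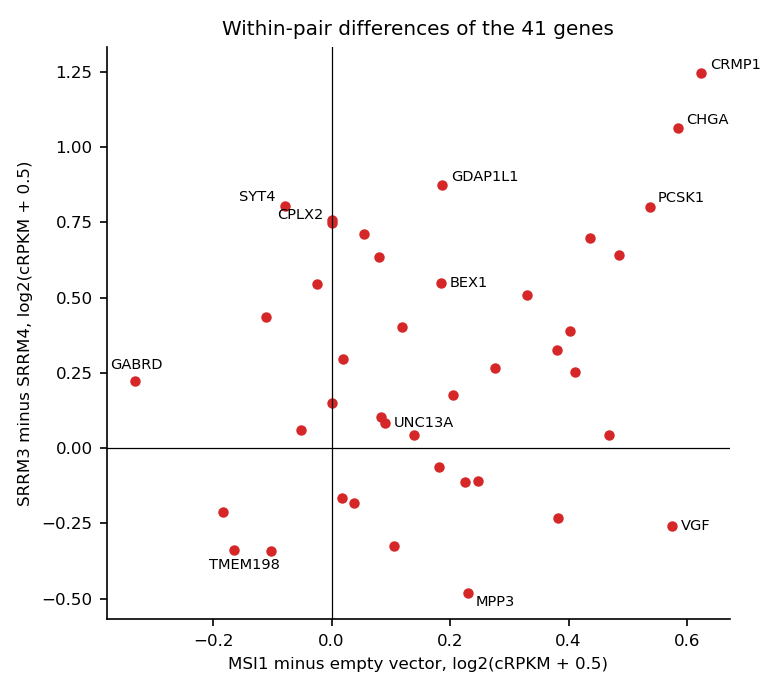
MSI1 minus empty vector on the horizontal axis and SRRM3 minus SRRM4 on the vertical axis, both on the log2(cRPKM + 0.5) scale, with 1 point for each of the 41 higher genes. CRMP1 (1.25) and CHGA (1.06) lie farthest toward SRRM3, and 21 genes lie in the quadrant where SRRM3 and MSI1 are the higher libraries of their pairs.

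At the thresholds the calls rest on small steps. The genes nearest a threshold were taken among those with a mean of at least 1 cRPKM that are neither short RNAs nor clones. Of those meeting the gap rule, APBB3 at 1.04 and GOLGA7B at 1.03 were just inside the 2-fold limit. Just outside it were KIAA0408 at 0.98 and the secretory carrier protein SCAMP5 at 0.97. Of those at least 2-fold apart, CRMP1 and DHRS2 were just inside the gap rule. Just outside it were ANKRD1 and the actin-like ACTBL2 (3.62, 5.72, 0.98 and 3.53 cRPKM, difference -1.05, spread 1.45). Between 1.5-fold and 2-fold lay 57 more higher genes, 36 of them neither short RNAs nor clones and with every interval above 1. Examples, chosen after their values were seen, are BSN, a scaffold of the presynaptic active zone, at 0.83, and GNAO1, a G-protein subunit abundant in brain, at 0.74. Of 25 lower genes in that range 7 were neither short RNAs nor clones and had every interval below 1, among them the adhesion receptor CD44 at -0.77 and the metal transporter SLC39A8 at -0.67. NPIPA5, the remaining gene of the 56 that is neither a short RNA nor a clone, had 2, 3, 6 and 5 reads and belongs to a family of near-identical copies, so its value is uncertain.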

How the data were processed

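Each of the 4 libraries, 1 per group by the labels, has a table of Ensembl gene IDs with the authors' cRPKM (a corrected RPKM, deposited with 2 decimals) and the authors' deposited read counts. The build is hg38 (GRCh38), per the submitters' processing notes; for the aligner, counter, annotation release and strand setting: not given in the sources used here. Over 3768 well-covered genes the deposited counts and RPKM values agreed to within 0.047%. Thus cRPKM is the count over the library total and a divisor fixed for each gene. That divisor is not the plain gene length, since NPIPA5 had 2 reads and 8.05 cRPKM with the empty vector. Of 41614 genes listed, 1426 have no value; symbols and coordinates for 39941 come from GENCODE 29. Of 13284 genes at or above 1 cRPKM in any library, the 3 induced genes were left out. A floor of 3 reads is 0.0476 to 0.0498 CPM.

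A pseudocount of 0.5 was added before log2, and the ratio of counts in each of the 4 pairings was given a 95% Clopper-Pearson interval; reads are not independent molecules. Named genes were the induced genes, the 4 given markers, up to 30 higher and 15 lower genes with all intervals excluding 1, up to 12 silent genes, up to 4 per list, up to 6 abundant genes per direction and 2 on each side of a threshold; the other higher genes were added so that all are accounted for. The comparison, members and 19 gene lists were chosen with earlier results of these data known. The procedure was run on simulated counts with counting error alone and with changes placed only in better-covered genes. That run does not cover differences between lines or genes of few reads. Alternatives covered pseudocount, filters, gap definition, scaling (TMM factors from edgeR 4.0.16, median of ratios), gene type and each library left out. Python 3.11.15, pandas 2.3.3, scipy 1.17.1 and R 4.3.3 were used.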

Additional observations from a re-analysis of the deposited data

How the results depend on the processing

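No paired analysis was possible because each group has 1 library. With 1 library per group and different transgenes within a pair, no count has a replicate check. Of the 56 genes at least 2-fold higher, 22 counted with a pseudocount of 2, 19 with a limit of 5 cRPKM in any library and 113 at 1.5-fold; the other settings with all 4 libraries gave 41 to 75. The 14 lower genes became 23 with a pseudocount of 0.1, 2 with a pseudocount of 2, 7 with a mean cRPKM of at least 1, 1 with a limit of 5 cRPKM, 1 with TMM-scaled CPM, 2 among protein-coding genes, 39 at 1.5-fold and 1 with every interval excluding 1; with more than 10 reads in a library, chosen after seeing the data, 2 were left. The gap rule alone gave 2342 higher and 2639 lower genes with no cRPKM limit, 556 and 657 when the nearest values had to be that far apart, and 2045 and 2479 when the pairs only had to be free of overlap, instead of 1314 and 1591. The 14 higher genes silent in the controls became 4 with a pseudocount of 2, 22 with no limit, 5 with a mean of at least 1, 2 with a limit of 5 cRPKM, 5 with TMM scaling and 5 among protein-coding genes. Leaving out a library removes a within-pair spread, so the gap rule is looser by construction. The higher count then ranged from 78 to 88, reaching 87 without MSI1 and 88 without SRRM4, and the lower count from 20 to 55, with 55 without the empty vector and 36 without MSI1 or SRRM4. The gap-rule counts ranged from 2519 to 3049 higher and 2616 to 3946 lower, and the silent count from 19 to 30, with 30 without MSI1 and 25 without either SRRM library. Of the 56 higher genes, 51, 54, 47 and 50 were still called without the empty-vector, MSI1, SRRM3 and SRRM4 library. With TMM-scaled CPM and all libraries, 53 genes were higher and 41 of these were among the 56. No named gene meeting the gap rule reversed: 550 values of 69 genes over 9 settings moved by less than the within-pair spread and 71 by more. Leaving out a library cannot move a difference by more than that spread, nor reverse a gene that meets the gap rule. The values of those settings are therefore among the 550 by construction, and the 550 are no measure of stability. Scaling shifted the median of all genes by at most 0.0124 log2.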
